A study of Mus musculus with 12 samples.

Results

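MicroRNA genes were read by 305 of the 28853 probes of a mouse gene array, the Affymetrix MoGene 1.0 ST. A probe counted as a microRNA probe when it carried exactly 1 gene symbol and that symbol began with Mir and a digit, or with Mirlet7. These probes carried 300 of the 19938 symbols that have a probe to themselves. Of them, 298 probes read 296 microRNA genes, and 7 probes read longer host transcripts named for the microRNAs they carry (Mir17hg, Mir99ahg, Mir100hg and Mir670hg). Another 61 probes held a microRNA among several symbols and were left out. All 305 probes had a value on each of the 12 arrays, and no filter on low values was applied. The RNA was total RNA and the array is built for long transcripts, so a microRNA probe reads the precursor or the host transcript, not the mature microRNA.

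The colon of WT mice was compared with that of mice deficient in thrombospondin 1 (TSP-1-/-), a secreted glycoprotein with roles in angiogenesis, after AOM/DSS or on water. All mice were of the C57BL/6 strain, and the treated mice were males 7 weeks old at the start. TSP-1-/- mice still hold the Thbs1 gene with a targeted mutation and make no protein, in all cells of the body. Each of the 4 groups (WT AOM/DSS, TSP-1-/- AOM/DSS, WT water, TSP-1-/- water) had 3 arrays, 1 per mouse, and the labels call them biological replicates.

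The treated mice received azoxymethane (AOM), a carcinogen that acts on the colon, at 10 mg/kg, and 4 cycles of 7 days of 1.5% dextran sodium sulfate (DSS), which injures the colonic epithelium. They were killed 15 weeks after AOM. The sources differ on whether the injection came before or with the first DSS cycle, and on whether the RNA came from excised tumors or from colon. The labels of the 6 water arrays carry the protocol of another experiment with 2.5% DSS. Values are log2 signals relative to a baseline per probe, so they hold no absolute level and cannot be set against another probe. On the AOM/DSS arrays the zero is, by the study's description, the median of all 12 arrays, and on the water arrays it is another value. Genotypes were therefore compared within AOM/DSS and within water. The p-values of these comparisons rest on a spread between arrays that was pooled over all 4 groups.

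MicroRNAs are short RNAs that pair with messenger RNAs and lower their translation and stability. They are cut from hairpins in longer transcripts, first by Drosha with Dgcr8 in the nucleus and then by Dicer1 in the cytoplasm, and are loaded into Argonaute proteins. Pairing rests largely on the seed near the 5′ end, so genes with 1 seed form a family, and neighbouring hairpins are often cut from 1 shared transcript.

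The families that hold the called genes, and the relatives that the results below return to, are shown by their mature sequences, as held by RefSeq for the mouse assembly GRCm38.p6, 5′ to 3′, with the seed (bases 2 to 8) in capitals. The miR-15/16 family holds 2 of the 3 called genes:
miR-15a-5p: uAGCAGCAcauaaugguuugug
miR-16-5p: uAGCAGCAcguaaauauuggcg
miR-15b-5p: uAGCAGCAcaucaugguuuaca
miR-195a-5p: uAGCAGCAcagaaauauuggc
miR-497a-5p: cAGCAGCAcacugugguuugua
The miR-130 family holds the other called gene, Mir130a (its relative miR-301b-3p is named only):
miR-130a-3p: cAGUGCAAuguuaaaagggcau
miR-130b-3p: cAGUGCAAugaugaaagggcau
miR-301a-3p: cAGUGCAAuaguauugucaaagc
The miR-17-92 cluster and its paralogs carry 2 main seeds, that of miR-17 and that of miR-19:
miR-17-5p: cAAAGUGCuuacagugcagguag
miR-20a-5p: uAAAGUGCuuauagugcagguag
miR-20b-5p: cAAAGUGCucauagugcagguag
miR-106a-5p: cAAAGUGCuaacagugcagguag
miR-106b-5p: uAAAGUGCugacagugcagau
miR-93-5p: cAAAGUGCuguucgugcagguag
miR-19a-3p: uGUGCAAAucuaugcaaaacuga
miR-19b-3p: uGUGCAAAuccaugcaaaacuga
The miR-200 family is shown since its members lay on opposite sides of the 12-array median, and let-7f since 2 loci with the same mature sequence differed in sign:
miR-200a-3p: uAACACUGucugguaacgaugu
miR-141-3p: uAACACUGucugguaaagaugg
miR-200b-3p: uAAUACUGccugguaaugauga
miR-200c-3p: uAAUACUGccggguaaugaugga
let-7f-5p: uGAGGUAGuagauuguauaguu

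miR-16-5p is made from a pair of loci, chr14:61631936-61631957 on the minus strand (Mir16-1) and chr3:69009918-69009939 on the plus strand (Mir16-2). miR-15a-5p lies beside the first, at chr14:61632075-61632096 on the minus strand, and both chromosome 14 hairpins lie within the long noncoding gene Dleu2. miR-15b-5p lies beside the second, at chr3:69009775-69009796 on the plus strand. miR-130a-3p lies at chr2:84741116-84741137 on the minus strand. miR-17-5p lies at chr14:115043684-115043706 on the plus strand, where the miR-17-92 cluster begins.

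Some arrays stood apart before any microRNA was considered. Between pairs of arrays of 1 group, the correlation over all probes was 0.017 to 0.330 among the WT AOM/DSS arrays. It was 0.547 to 0.651 among the TSP-1-/- AOM/DSS arrays. On the water arrays, which have another zero, it was 0.434 to 0.642 in WT and -0.036 to 0.462 in TSP-1-/-. Low correlations were thus not particular to WT AOM/DSS. TSP-1-/- AOM/DSS 3 had the widest values (SD 0.753, against 0.293 to 0.453 on the other arrays) and a median of 5.65 over 7 pancreatic acinar markers, against -0.25 to 0.01 on the other AOM/DSS arrays. WT AOM/DSS 1 stood with the 3 TSP-1-/- arrays in the median of 7 markers of position along the gut. The medians were -2.45 and -2.23 to -1.65, against 0.32 and 0.28 on WT AOM/DSS 2 and 3. The 7 markers did not all move 1 way. Between the AOM/DSS genotypes 5 were lower in TSP-1-/- and 2 higher, with log2 differences from -2.70 to 4.19. The Thbs1 probe read -0.16 to 0.27 in WT AOM/DSS and 0.81 to 0.93 in TSP-1-/- AOM/DSS. The mutated gene can still be transcribed, so this probe does not check the genotype labels. The 7 colon epithelium markers (Cdx1, Cdx2, Epcam, Cdh1, Krt20, Vil1 and Krt8) were all on the array, but relative values do not show whether a marker was absent.

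The comparison of TSP-1-/- AOM/DSS with WT AOM/DSS asked which microRNA genes differ between the genotypes in the treated colon. After AOM/DSS, 3 microRNA probes were called, Mir130a, Mir16-1 and Mir15a, all higher in TSP-1-/-. A call needed a Benjamini-Hochberg adjusted p under 0.05 over all probes, from limma fitted to all 12 arrays, and at least a 2-fold difference. The 3 calls were set against 1.73% of all probes called higher, and 0 microRNA probes were called lower against 1.05%. At an adjusted p under 0.05 with no fold minimum, 12 microRNA probes were higher (5.38% of all probes) and 1 was lower (2.93%). At an unadjusted p under 0.05 the numbers were 66 higher (21.4% of all probes) and 6 lower (10.9%).

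Small differences toward higher values in TSP-1-/- were common among the 305 probes, with 225 of them (73.8%) higher and a median log2 difference of 0.22. Over all probes 62.8% were higher, with a median of 0.13. Other gene classes stood as high or higher, with 82.6% and a median of 0.25 for the olfactory and vomeronasal receptor probes, 54 of 60 and 0.49 for those of small nucleolar RNA genes, and 78.7% and 0.43 for the 61 probes with a microRNA among several symbols. The shift depended on the scaling. With each array centred on its median the median of all probes was 0.05, and with the 12 arrays quantile normalized again it was 0.02. Relative to the median of all probes, the microRNA median was 0.10 as deposited and 0.07 to 0.10 with the arrays centred or quantile normalized again, and it was 0.05 without TSP-1-/- AOM/DSS 3 and 0.06 without WT AOM/DSS 3. The share of microRNA probes higher in TSP-1-/- was 65.2% after centring, against 55.3% of all probes, and 61.6% after either quantile normalization, against 52.4% of all probes with the 12 arrays together and 52.2% within each set of 6. The split of calls over all probes moved as well, from 500 higher and 302 lower to 396 and 414 with centring, 259 and 391 with each set of 6 arrays quantile normalized again, and 78 and 105 with all 12 together. The microRNA probes ranged from -1.09 (Mir465) to 1.16 (Mir130a). The genotypes did not overlap in 62 probes higher in TSP-1-/- (20.2% of all probes) and 5 lower (10.7%). Higher without overlap were 20.3% of the microRNA probes, 29.8% of the receptor probes and 34.4% of the probes with a microRNA among several symbols.

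Mir130a, whose product shares its seed with miR-301 and is known from vessel and blood cell development, had the largest difference. Its probe (10484461) read -0.69, -0.39 and -0.18 on the WT AOM/DSS arrays and 0.35, 1.10 and 0.76 on the TSP-1-/- AOM/DSS arrays. Every TSP-1-/- value lay above every WT value. The means were -0.42 ± 0.26 and 0.74 ± 0.38 (SD, n = 3 each), a log2 difference of 1.16 (SE 0.19, 2.23-fold, limma adjusted p = 0.0137). On water the same probe differed by -0.01. Of the other family members, Mir301b (probe 10438096) read -0.55, -0.02 and -0.48 in WT and 0.38, 0.31 and 0.47 in TSP-1-/- AOM/DSS. This was a log2 difference of 0.74 (adjusted p = 0.0345), past the test and under the fold minimum. Mir130b, a neighbour of Mir301b on chromosome 16, had a difference of 0.24 (adjusted p = 0.359), and Mir301 on chromosome 11 one of 0.31 (adjusted p = 0.346), with the genotypes overlapping in both. The median over the 3 probes with this seed in the sequence table was 0.31.

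Mir16-1 and Mir15a, neighbours on chromosome 14 that are known as regulators of the cell cycle and of Bcl2, were the other called genes. Mir16-1 (probe 10420666) read -0.61, -0.85 and -1.23 in WT AOM/DSS and 0.16, 0.23 and 0.18 in TSP-1-/- AOM/DSS. The log2 difference was 1.08 (SE 0.21, 2.12-fold, adjusted p = 0.0211), and the 3 TSP-1-/- values lay within a narrow range above all WT values. Mir15a (probe 10420668) read -0.71, -0.28 and -1.01 in WT and 0.74, -0.06 and 0.50 in TSP-1-/-. The genotypes again did not overlap, and the log2 difference was 1.06 (SE 0.27, 2.08-fold, adjusted p = 0.0378). Their host transcript Dleu2 had a log2 difference of 0.50 (adjusted p = 0.126), with WT AOM/DSS 2 at 0.11 within the TSP-1-/- range of -0.02 to 0.14.

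The 3 calls rested on single arrays to different degrees. Mir130a was called in 17 of 20 other settings of the processing, Mir16-1 in 15 and Mir15a in 9. Their SEs and p-values rest on a spread pooled over all groups, water included. No microRNA probe was called with only the AOM/DSS groups fitted, or with the 12 arrays quantile normalized again. Without WT AOM/DSS 3, or without TSP-1-/- AOM/DSS 3, Mir130a was the only microRNA probe called, and without TSP-1-/- AOM/DSS 2 Mir130a was not called. Leaving out another array could also add calls. Without WT AOM/DSS 1 there were 6, with Mir19b-2, Mir17hg and Mir196b higher and Mir680-2 lower, and without WT AOM/DSS 2 there were 5, with Mir106b and Mir99ahg. Without TSP-1-/- AOM/DSS 1 there were 5, with Mir218-1, Mir350 and Mir465, and without TSP-1-/- AOM/DSS 2 there were 6, with Mir142, Mir302a, Mir367 and Mir99ahg. The adjusted p ranged over these settings from 0.00771 to 0.122 for Mir130a, from 0.0105 to 0.108 for Mir16-1 and from 0.0189 to 0.138 for Mir15a.

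The 6 measured probes of the miR-15/16 family were all higher in TSP-1-/- AOM/DSS, with a median of 0.32. The second locus of the family, on chromosome 3, had smaller differences than the called locus. Mir15b read -0.71, -0.91 and -0.93 in WT and -0.53, -0.70 and -0.30 in TSP-1-/- AOM/DSS, a log2 difference of 0.34 (adjusted p = 0.113). Mir16-2 read -0.52, -0.64 and -0.33 in WT and -0.28, -0.11 and -0.40 in TSP-1-/-, a difference of 0.23 (adjusted p = 0.239). So the loci of miR-16-5p, which make the same mature RNA, read 1.08 and 0.23. The difference between them was not tested. On chromosome 11, Mir195a had a difference of 0.30 (adjusted p = 0.41) and Mir497 one of 0.25 (adjusted p = 0.316).

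**Figure D1:**
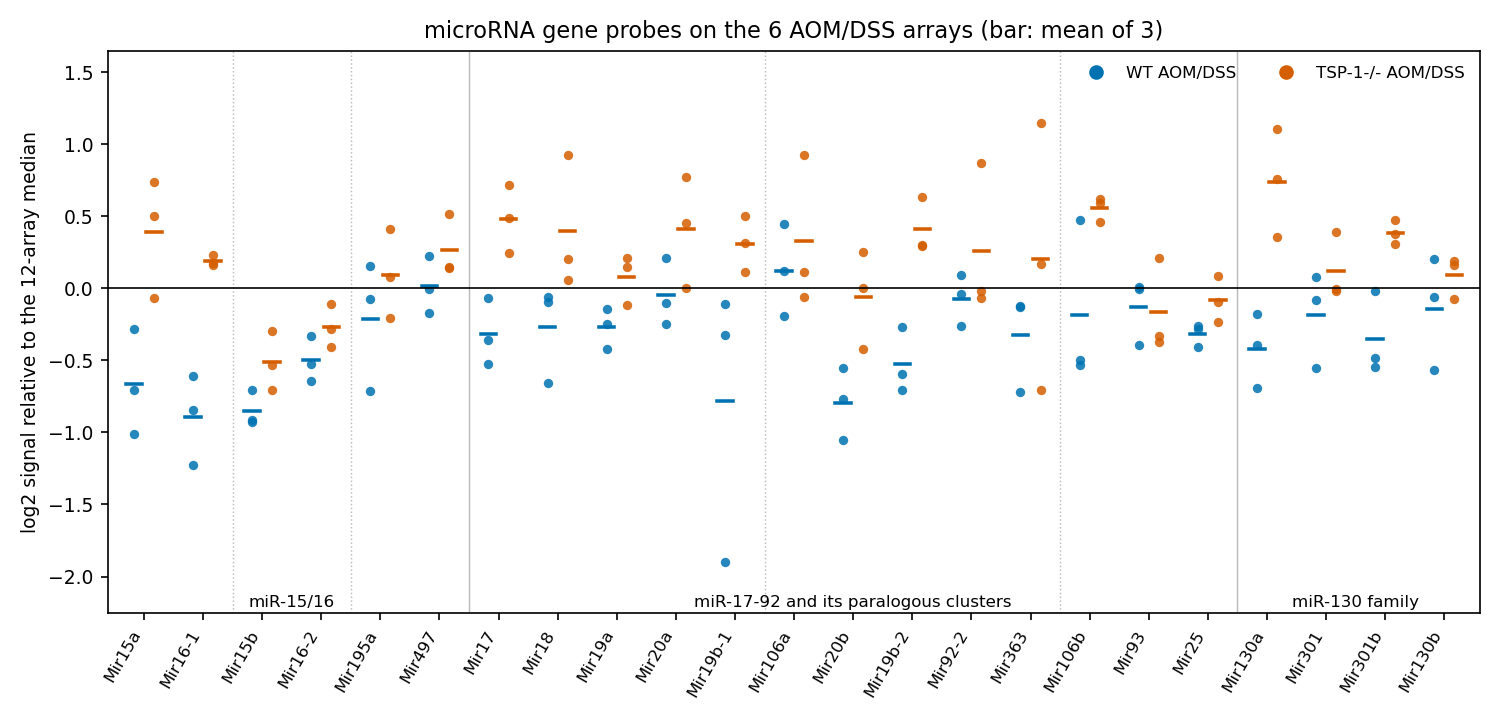
Log2 signal relative to the 12-array median (y axis) of the probes of the miR-15/16, miR-17-92 and miR-130 families on the 6 AOM/DSS arrays, with 1 point per array, a bar for the mean of 3 arrays, and lines between genomic clusters. All 6 AOM/DSS values of Mir15b and Mir16-2 sit below 0, while the TSP-1-/- values of Mir16-1 sit between 0.16 and 0.23 and its WT values between -1.23 and -0.61.

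The miR-17-92 cluster, known as a driver of proliferation downstream of Myc, and its paralogs on chromosomes X and 5 were read by 13 probes. Of these, 12 were higher in TSP-1-/- AOM/DSS, and the median was 0.52. At an unadjusted p under 0.05, 8 were higher (21.4% of all probes). At an adjusted p under 0.05, 3 were higher (5.38% of all probes), and 0 were called (1.73% of all probes were called higher). After each rescaling 12 of 13 were again higher, and the median was 0.26 to 0.45. The 5 probes of the cluster itself, on chromosome 14, were all higher with a median of 0.67, which was 0.46 to 0.59 after rescaling with all 5 again higher. Mir17 (probe 10416948) read -0.36, -0.52 and -0.07 in WT and 0.25, 0.49 and 0.72 in TSP-1-/-. The genotypes did not overlap, with a log2 difference of 0.80 (SE 0.19, adjusted p = 0.0325). The differences of its neighbours were 0.67 for Mir18 (adjusted p = 0.0787), 0.35 for Mir19a (0.126) and 0.46 for Mir20a (0.147).

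Mir19b-1, the last hairpin of the cluster with a probe of its own, read -0.33, -0.11 and -1.90 in WT and 0.11, 0.50 and 0.32 in TSP-1-/- AOM/DSS. Its difference of 1.09 was more than 2-fold, but the low value of WT AOM/DSS 3 gave an SE of 0.44 and an adjusted p of 0.113. The host transcript Mir17hg had the same low array, with -0.04, -0.40 and -1.40 in WT and 0.05, 0.06 and 0.55 in TSP-1-/-, a difference of 0.83 (adjusted p = 0.0738).

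The 5 probes of the Mir106a-Mir363 cluster on chromosome X were also all higher in TSP-1-/- AOM/DSS, with a median of 0.52. The median was 0.45 with each array centred, 0.24 with the 12 arrays quantile normalized again and 0.30 with each set of 6 normalized again, and the 5 stayed higher. Mir19b-2 (probe 10604591), which makes the same mature RNA as Mir19b-1, read -0.27, -0.59 and -0.71 in WT and 0.30, 0.64 and 0.30 in TSP-1-/-. Its difference of 0.93 (SE 0.18, adjusted p = 0.0199) was just under the fold minimum. Mir20b read -1.06, -0.77 and -0.55 in WT and from -0.42 to 0.25 in TSP-1-/-, a difference of 0.74 (adjusted p = 0.0344). Mir363, Mir92-2 and Mir106a had differences of 0.52, 0.33 and 0.20, with adjusted p-values of 0.304, 0.333 and 0.56. In the Mir106b-Mir25 cluster on chromosome 5, within Mcm7, Mir106b had a difference of 0.74 (adjusted p = 0.062), with WT AOM/DSS 2 at 0.48 inside the TSP-1-/- range of 0.46 to 0.62. Mir93 differed by -0.03 and Mir25 by 0.24 (adjusted p = 0.914 and 0.208). By seed, the 6 probes with the miR-17 seed had a median of 0.60 and the 3 with the miR-19 seed a median of 0.93.

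let-7, which restrains proliferation and is blocked by Lin28, was read by 10 probes, of which 7 were higher in TSP-1-/- AOM/DSS, with a median of 0.21, a range from -0.44 to 0.49 and 0 called. With each array centred 7 were higher, with a median of 0.13, and with either quantile normalization 6 were, with medians of 0.04 and 0.05. Mirlet7c-1 read -0.44, 0.29 and -0.15 in WT and 0.42, 0.50 and 0.24 in TSP-1-/- (difference 0.49, adjusted p = 0.0806). Mirlet7g had a difference of 0.48 (adjusted p = 0.073). Mirlet7f-2 went the other way, with 0.34, 0.07 and -0.03 in WT and -0.56, 0.07 and -0.44 in TSP-1-/- (difference -0.44, adjusted p = 0.114), while Mirlet7f-1, with the same mature RNA, differed by 0.18 (adjusted p = 0.588).

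The miR-200 family, which keeps epithelial cells epithelial by repressing Zeb1 and Zeb2, had 4 probes, since Mir429 had none of its own. Mir200a read -0.71, 0.04 and -0.58 in WT and 0.08, -0.04 and 0.12 in TSP-1-/- AOM/DSS, a difference of 0.47 (adjusted p = 0.09). Mir200b read 0.05, 0.32 and 0.26 in WT and 0.63, 0.50 and 0.98 in TSP-1-/-, a difference of 0.49 (adjusted p = 0.074). The genotypes did not overlap for Mir200b and overlapped for Mir200a, and neither passed the test. Mir200c had a difference of 0.32 (adjusted p = 0.313) and Mir141 one of -0.05 (adjusted p = 0.845). Beside these values, the 7 colon epithelium markers were all lower in TSP-1-/- AOM/DSS, with a median of -0.53 and array medians of 0.01 to 0.19 in WT and -0.68 to -0.03 in TSP-1-/-. Their part in the miR-200 values was not tested, and in whole tissue fewer cells of a type and less RNA per cell cannot be told apart.

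The imprinted cluster on chromosome 12, between Dlk1 and Dio3, gave 40 probes, the largest single block of microRNA probes here. Of these, 25 were higher in TSP-1-/- AOM/DSS, which became 21 or 22 with rescaling, with a median of 0.11 and 0 called. Its values ran from -0.31 (Mir377) to 0.76 (Mir679). Mir679 read -0.35, -0.03 and -0.45 in WT and 0.42, 0.38 and 0.66 in TSP-1-/- (adjusted p = 0.0224), and its neighbour Mir494 had a difference of 0.55 (adjusted p = 0.0454). These were the only probes of the cluster at an adjusted p under 0.05. The median was -0.07 over the 7 probes from Mir337 to Mir136 and 0.10 over the 30 probes from Mir379 to Mir369.

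The remaining probes at an adjusted p under 0.05 lay outside these families. Mir652 read -0.06, -0.30 and 0.00 in WT and 0.63, 0.33 and 0.62 in TSP-1-/- AOM/DSS, a difference of 0.65 (adjusted p = 0.0269). Mir350 had a difference of 0.86 (adjusted p = 0.0383) and Mir672 one of 0.77 (adjusted p = 0.0496). Mir217 was the only probe lower at this threshold, with 0.45, 0.30 and 0.27 in WT and -0.16, -0.02 and -0.22 in TSP-1-/-, a difference of -0.47 (SE 0.12, adjusted p = 0.0399). Among the other probes that were lower, none of them called, Mir465 had the largest difference. It read 0.47, -0.12 and 0.60 in WT and -0.18, -0.79 and -1.33 in TSP-1-/- (-1.09, adjusted p = 0.0582). Next by p, not by size, came Mir196a-2 (-0.42, adjusted p = 0.0919), Mirlet7f-2 and Mir680-2 (-0.87, adjusted p = 0.132). The Mir302b-Mir367 cluster on chromosome 3, known from pluripotent cells, had 4 of 5 probes higher and a median of 0.71, with a range from -0.24 to 0.81 and 0 at an adjusted p under 0.05.

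MicroRNAs were also grouped by the cells or processes they are known for. Of 11 probes of inflammation and blood cell microRNAs, 9 were higher in TSP-1-/- AOM/DSS (8 after quantile normalization), with a median of 0.29 and 0 called. Mir142, a gene of blood cells, read 0.33, -0.20 and 0.27 in WT and 0.90, 0.21 and 1.81 in TSP-1-/-. The genotypes overlapped, and the difference was 0.84 (SE 0.30, adjusted p = 0.0892). Beside it, 6 of 7 neutrophil and monocyte markers were higher in TSP-1-/- AOM/DSS (62.8% of all probes), and 1 was called higher (1.73% of all probes). The array medians of the markers were -0.44 to 0.29 in WT and 0.57 to 1.02 in TSP-1-/-. On water 6 of 7 markers were higher in TSP-1-/- as well (49.4% of all probes), with a median difference of 0.77 and 0 called. Their part in the Mir142 values was not tested. Mir146, which damps Toll-like receptor signalling, had a difference of 0.29 (adjusted p = 0.142), and Mir155, which is induced in activated immune cells, one of -0.11 (adjusted p = 0.792).

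Of 12 probes of gut epithelium microRNAs 10 were higher (7 or 8 with rescaling), with a median of 0.28 and 0 called. Mir7b had the lowest adjusted p among them (0.50, adjusted p = 0.0616), followed by Mir31 (0.46, adjusted p = 0.0963) and Mir194-1 (0.41, adjusted p = 0.108). The 5 probes of the Mir34 and Mir449 genes, of which Mir34a is a known target of p53, were all higher (4 after centring), with a median of 0.40. Mir34c had a difference of 0.67 (adjusted p = 0.103) and Mir34a one of 0.03. Mir29a and Mir29b-1, which target collagen messages, had differences of 0.40 and 0.46, of which the first had an adjusted p of 0.0794.

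The 9 probes of muscle microRNAs had a median of 0.03, which was -0.05 after centring. Mir145a, of smooth muscle, read 0.38, 0.14 and 0.10 in WT and -0.37, 0.08 and -0.37 in TSP-1-/- AOM/DSS, a difference of -0.43 (adjusted p = 0.149). The 7 smooth muscle markers had a median of -0.30, with 6 of 7 lower and 0 called. The 6 probes of endothelial microRNAs had a median of 0.01, which was -0.08 to -0.06 with rescaling. Mir221 had a difference of 0.65 (adjusted p = 0.0812) and Mir126a, carried by the endothelial gene Egfl7, one of -0.17 (adjusted p = 0.433). The 7 endothelium markers, by contrast, were all higher in TSP-1-/- AOM/DSS, with a median of 0.54 and 0 called. After each rescaling 6 of the 7 were higher, with medians of 0.35 to 0.47. Of the 6 probes within the Hox clusters, which mark position along the body, 4 were lower and the median was -0.18. Mir196b read 0.93 on WT AOM/DSS 1 against -0.87 and -1.48 on the other WT arrays, and 0.22 to 0.48 in TSP-1-/- AOM/DSS (0.81, adjusted p = 0.241). WT AOM/DSS 1 is also the array that stood apart in the gut position markers, whose part in the Mir196b values was not tested.

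**Figure D2:**
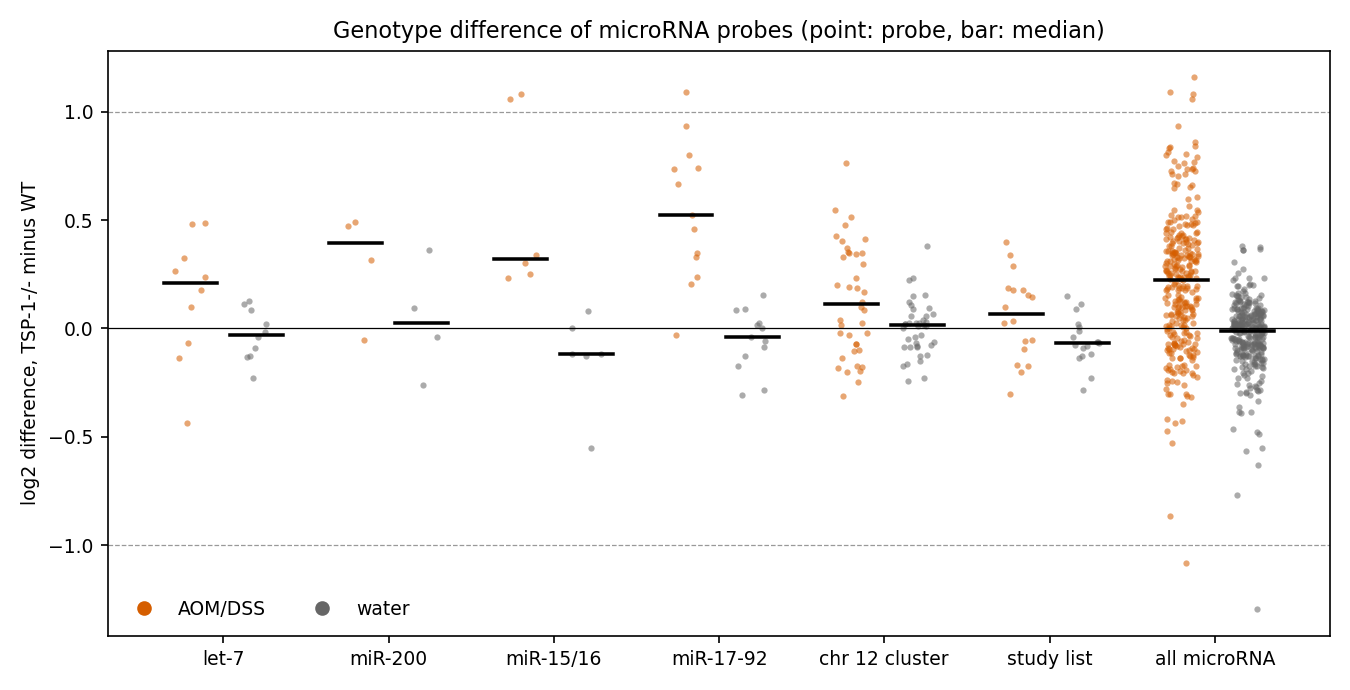
Log2 genotype difference (TSP-1-/- minus WT, y axis) of each microRNA probe within AOM/DSS and within water, by family, with 1 point per probe, a bar for the median and dashed lines at 2-fold. The AOM/DSS medians are 0.52 for miR-17-92 and 0.32 for miR-15/16 against 0.22 for all microRNA probes, and every water median shown lies between -0.12 and 0.03.

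The comparison of TSP-1-/- water with WT water asked the same question without treatment. No microRNA probe was called, and 0 of all probes were (0% in each direction). At an unadjusted p under 0.05, 0 microRNA probes were higher (0.576% of all probes) and 2 were lower (0.423%). The median of the 305 probes was -0.01, with 146 higher. The genotypes did not overlap in 6 probes higher (2.29% of all probes) and 14 lower (2.88%). The muscle gene Mir1a-2 had the largest difference, with 0.39, 0.06 and 0.97 in WT water and -1.44, -0.60 and -0.42 in TSP-1-/- water (-1.30, limma adjusted p = 1.00). The other was Mir181a-2, with -0.38. Next by p among the lower probes, none of them called, were Mir15a (-0.55), Mir182 (-0.34) and Mir224 (-0.36). Among the higher ones, also not called, Mir200a (0.36), Mir382 (0.23), Mir138-2 (0.37), Mir495 (0.38) and Mir26b (0.17) had the lowest p. The adjusted p was 1.00 for each of them.

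Mir15a on water read 0.30, -0.41 and -0.16 in WT and -0.26, -0.80 and -0.86 in TSP-1-/-, so its difference had the opposite sign to that after AOM/DSS. Mir16-1 beside it differed by 0.00, and Mir130a by -0.01. None of the 5 probes of the chromosome 14 miR-17-92 cluster was higher in TSP-1-/- water, with a median of -0.13, where all 5 had been higher after AOM/DSS. Mir17 read 0.09, -0.22 and -0.06 in WT water and -0.33, -0.49 and 0.12 in TSP-1-/- water, with the genotypes overlapping.

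Whether the genotype difference itself differed between AOM/DSS and water was tested as the difference of these differences. No microRNA probe was called, against 0.00694% of all probes called higher and 0% lower. At an unadjusted p under 0.05 there were 36 microRNA probes with the larger difference after AOM/DSS (9.96% of all probes) and 1 with the smaller (5.42%). The lowest p-values belonged to Mir130a (1.17, limma adjusted p = 0.183) and Mir15a (1.61, adjusted p = 0.198). Mir679 (0.89), Mir19b-2 (0.97) and Mir301b (0.92) came next, with adjusted p-values of 0.214, 0.235 and 0.235. In the other direction Mir217 had -0.42 (adjusted p = 0.292), followed by Mir680-2, Mir434, Mir377 and Mir137. So the 3 genes called after AOM/DSS were not shown to differ more there than on water.

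AOM/DSS was compared with water by the side of the 12-array median, since the columns of the array sets are not on 1 scale. Where all 6 AOM/DSS arrays of a probe lie below the median of the 12 arrays, all 6 water arrays must lie above it, and the sets separate completely. An exact two-sided Fisher test gives each such probe p = 0.00216, the smallest this design allows, and an adjusted p of 0.0359 over all probes. What the treatment did and what came with the array set cannot be told apart here. That the zero of the AOM/DSS columns is the 12-array median is the study's description. The columns were checked against group means that the study tabulated for part of its genes, which shows whether they are the same values, not what the zero is. Of 377 genes so compared, 376 matched a single probe in both AOM/DSS means within 0.0001, and 0 of those probes matched in the water means.

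All 6 AOM/DSS arrays lay below the median for 39 microRNA probes, 12.8% of them, against 4.02% of all probes. They lay above it for 4 microRNA probes, 1.31%, against 2.02% of all probes. Other gene classes stood at 0 of 60 probes below for small nucleolar RNA genes, 1 of 61 (1.64%) for the probes with a microRNA among several symbols and 102 of 1210 (8.43%) for olfactory and vomeronasal receptor genes, whose messages are made mainly in sensory neurons. With a margin of at least 0.1 from the median, 25 microRNA probes lay below (8.20%) and 1 above, against 1.74% of all probes and 3.72% of the receptor probes below.

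**Figure D3:**
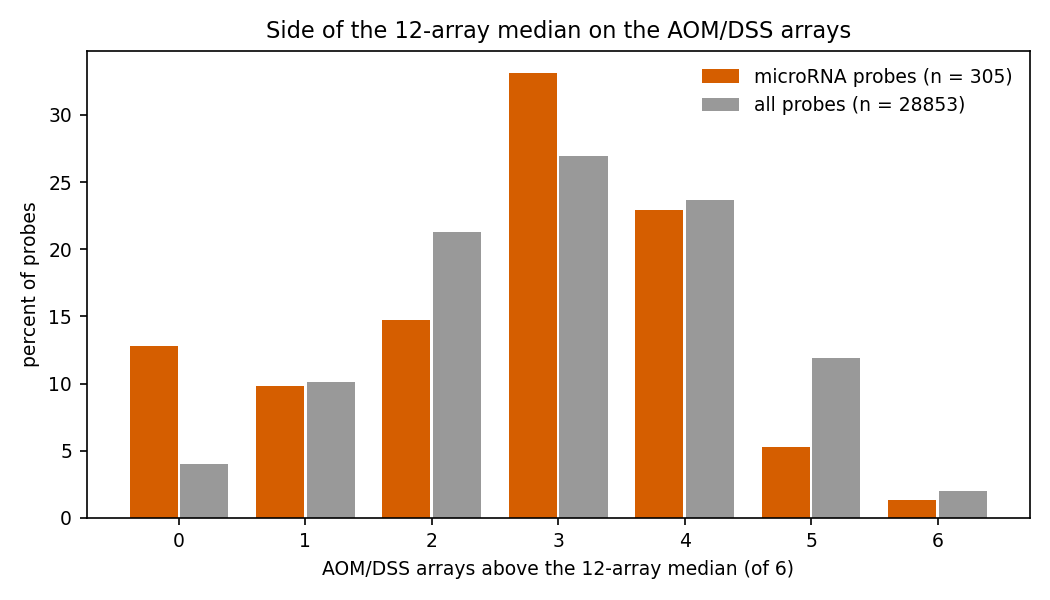
Percent of probes (y axis) by how many of the 6 AOM/DSS arrays lay above the 12-array median (x axis), for the 305 microRNA probes and all 28853 probes. At 0 arrays above, the microRNA bar stands at 12.8% and that of all probes at 4.02%.

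Mir1a-1, a gene of heart and skeletal muscle, lay farthest below. It read -1.21, -1.02 and -0.65 in WT AOM/DSS and -0.67, -0.95 and -1.18 in TSP-1-/- AOM/DSS. From the mirror of the highest of these values, which no water array can lie under, the WT mean was at least 3.06-fold and the TSP-1-/- mean at least 3.00-fold lower than each water array. The genotypes overlapped and differed by 0.03. Mir1a-2, its paralog, lay above the median on 4 of 6 AOM/DSS arrays.

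Mir141 came next, with -1.03, -0.48 and -0.46 in WT and -0.47, -0.87 and -0.79 in TSP-1-/- AOM/DSS, at least 2.16-fold and 2.24-fold lower than each water array. Mir200b, with which it shares a family but not the seed, lay above the median on all 6, at least 1.20-fold higher in WT and 1.69-fold in TSP-1-/-. Mir200a, with the seed of Mir141, lay above on 3 of 6. Mir15b was at least 2.22-fold lower in WT and 1.75-fold in TSP-1-/-, and Mir16-2 beside it at least 1.52-fold and 1.30-fold. The called neighbours Mir16-1 and Mir15a were above on 3 and 2 of 6 arrays, with all WT values of both below 0. The chromosome 3 locus thus separated all AOM/DSS from all water arrays, and the chromosome 14 locus did not.

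Mir146 read -0.86, -0.74 and -0.61 in WT and -0.54, -0.26 and -0.54 in TSP-1-/- AOM/DSS, and its TSP-1-/- mean was at least 1.64-fold lower than each water array. Mir34a was lower by at least 1.79-fold and 1.75-fold. Mir125b-1 and Mir125b-2, which make the same mature RNA from chromosomes 9 and 16, were both below on all 6 arrays, at least 1.68-fold and 1.80-fold in WT. Mir126a was at least 1.47-fold lower in WT and 1.65-fold in TSP-1-/-. Mir29a had bounds of 1.69-fold and 1.28-fold. In the chromosome 12 cluster 8 of 40 probes lay below on all 6 arrays (4.02% of all probes) and 0 above (2.02%). They were Mir136, Mir369, Mir376c, Mir541, Mir376a, Mir434, Mir382 and Mir377. Mir369 read -0.57, -0.69 and -0.68 in WT and -0.45, -0.52 and -0.41 in TSP-1-/-, with bounds of 2.09-fold and 1.83-fold, and Mir136 had bounds of 2.02-fold and 1.88-fold.

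The 4 probes above the median on all 6 AOM/DSS arrays were Mirlet7f-1, Mir200b, Mir532 and Mir219a-1. Mirlet7f-1 read 0.41, 0.50 and 0.15 in WT and 0.65, 0.41 and 0.52 in TSP-1-/-, at least 1.42-fold and 1.60-fold higher than each water array. Mirlet7f-2, with the same mature RNA, was above on 3 of 6, and Mir98, its neighbour with the let-7 seed, on 0 of 6. None of the 13 miR-17-92 probes lay on 1 side on all 6 arrays.

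The study listed 18 microRNAs as changed, and its abstract describes them as down-regulated in TSP-1-/- tumors. Its Results describe part of the microRNAs as down-regulated after AOM/DSS in both genotypes. Its supplement titles the list as that of treated TSP-1-/- mice. The claim may thus concern AOM/DSS against water, and not the genotypes. All 18 had a probe here. On the AOM/DSS arrays 16 of them lay below the median on all 6, Mirlet7f-1 lay above on all 6, and Mir10b lay above on 1 of 6. The list was chosen on these samples, so these counts are not independent evidence. Between the genotypes 11 of the 18 were higher in TSP-1-/- AOM/DSS, with a median of 0.07 that became -0.01 after centring, a range from -0.30 (Mir10b) to 0.40 (Mir29a), and 0 called. Of the 39 probes below on all 6 arrays, 23 were not on the list.

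**Figure D4:**
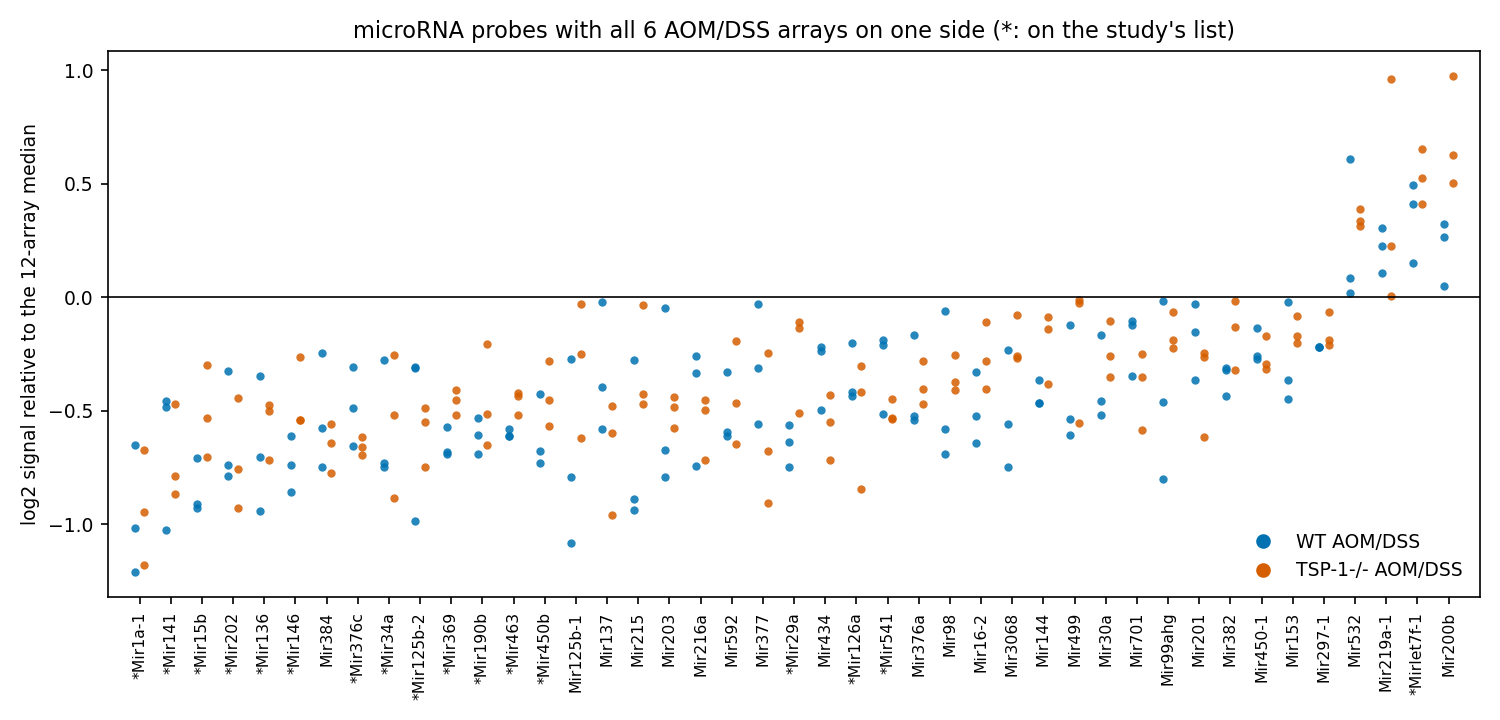
Log2 signal relative to the 12-array median (y axis) on the 3 WT and 3 TSP-1-/- AOM/DSS arrays for the 43 microRNA probes with all 6 arrays on 1 side, ordered by mean, with an asterisk for the genes of the study's list. The genotypes do not overlap in 7 of them, all higher in TSP-1-/- (20.2% of all probes did so), and overlap in the rest, as in Mir1a-1 with WT at -1.21 to -0.65 and TSP-1-/- at -1.18 to -0.67.

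Host genes were set beside the microRNAs they carry, since a probe may read the host transcript. A host was a gene whose span holds the hairpin on the same strand, and 96 microRNA probes had 1 or more among 76 host genes with 85 probes. Over the 108 pairs of probes, which share the same 6 arrays, the AOM/DSS genotype differences had the same sign in 61. Pearson's r was 0.25 and Spearman's rho 0.20, given as a description. Some hosts enter several pairs. Since 73.8% of all microRNA probes were higher and the host median was above 0, unrelated pairs would often share a sign too. The 85 host probes had a median of 0.20, with 2 called higher (1.73% of all probes) and 0 lower (1.05%). None of the host probes lay below the median on all 6 AOM/DSS arrays, where 7 of the 96 microRNA probes within them did. Over all probes the share was 4.02%, and over all microRNA probes 12.8%. The contrast between hosts and microRNAs was not tested.

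Single pairs ran together or apart. Mir350 and its host Cep170 had differences of 0.86 and 0.90 (adjusted p = 0.0383 and 0.0906), and Mir652 and Tmem164 had 0.65 and 0.36. Mir672 was higher by 0.77 while its host Nexmif was lower by -0.75 (adjusted p = 0.046). Mir126a differed by -0.17 and Egfl7 by 0.54 (adjusted p = 0.0861). Mir301b, with 0.74, stood beside a host, 2610318N02Rik, whose probes read -0.12 and 0.34.

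**Figure D5:**
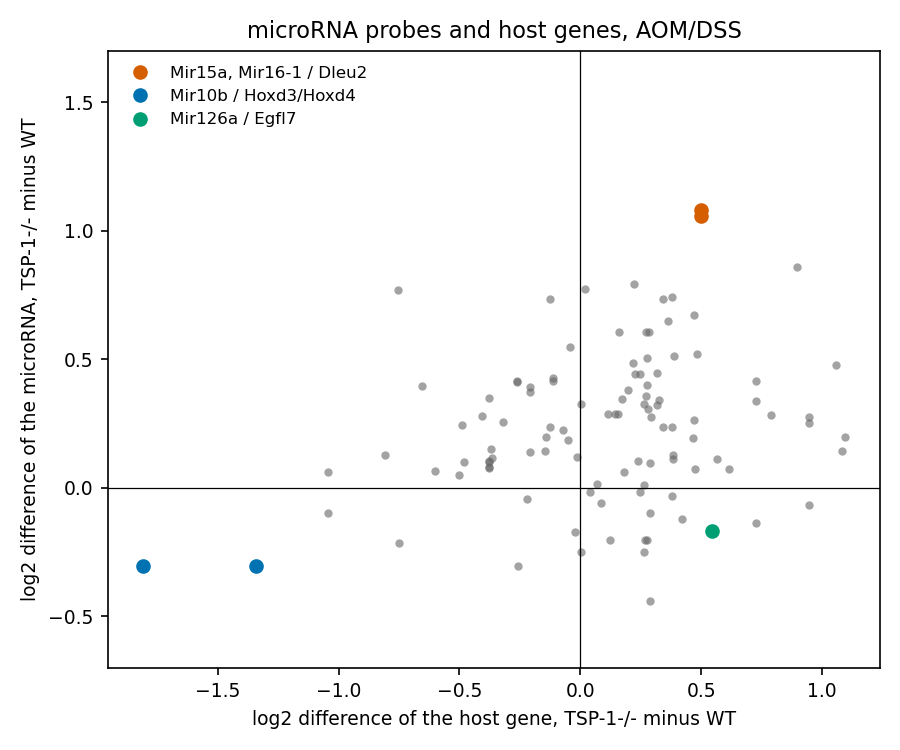
Log2 genotype difference after AOM/DSS of each microRNA probe (y axis) against that of its host gene (x axis), with 1 point per pair of probes and 3 hosts in colour. Dleu2 stands at 0.50 with Mir16-1 at 1.08 and Mir15a at 1.06, and Egfl7 stands at 0.54 with Mir126a at -0.17.

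The genes that make and use microRNAs were read by 26 probes of 23 genes. Of these, 20 were higher in TSP-1-/- AOM/DSS (18 after centring and 14 after quantile normalization), with a median of 0.15 and 0 called. Ago1, an Argonaute that holds the mature microRNA, read 0.19, -0.01 and -0.44 in WT and 0.85, 0.31 and 0.71 in TSP-1-/- AOM/DSS, a difference of 0.71 (adjusted p = 0.0421) under the fold minimum. Dgcr8, which binds the primary hairpin, had a difference of 0.51 and Xpo5, which exports the precursor, one of 0.32, with adjusted p-values of 0.105 for both. Ago4 had -0.60 (adjusted p = 0.108). None of the 26 probes lay below the median on all 6 AOM/DSS arrays (4.02% of all probes did), and their median on water was 0.00.

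Several genes can make 1 mature RNA, and their probes need not move together. Of the 270 microRNA genes with a mature sequence in the table (chromosome 18 left out), 45 shared one of 23 identical mature sequences. In 15 of the 23 the loci had genotype differences of 1 sign after AOM/DSS. Since 73.8% of all microRNA probes were higher, unrelated loci would often share a sign too. miR-9-3p and miR-9-5p, from the same loci, count separately. miR-19b-3p had 0.93 and 1.09 from its loci, miR-16-5p had 0.23 and 1.08, let-7f-5p had -0.44 and 0.18, and miR-125b-5p had -0.06 and 0.42. The differences between loci were not tested.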

How the data were processed

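Total RNA of mouse colon was hybridised to Affymetrix MoGene 1.0 ST arrays, 12 in all. The deposited log2 values were made by the authors with PLIER16, quantile normalization and a baseline per probe, which they give as the median of the 12 samples. No value was transformed again. An array's precision is limited by the 3 arrays per group. Aligners do not apply, and a genome build is not given in the sources used here. Probes were named through GEO's platform annotation (21789 with 1 symbol, 1621 with several and 5443 with none), and all 305 microRNA probes matched RefSeq by gene ID.

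limma 3.58.1 (R 4.3.3) fitted 1 mean per group to all 12 arrays, since the study's test also spans the 4 conditions, with p-values adjusted over 28853 probes, or 28815 where water values were needed. The median pooled SD was 0.219. The study's filter on its lowest signals could not be applied to relative values. AOM/DSS was set against water by an exact Fisher test per probe. The steps were tested on simulated data. Hosts and clusters (gaps of at most 10000 bases) came from RefSeq positions.

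The members and gene lists were chosen with earlier results of these data known. Named were the called probes or, where under 5 were called, the 5 with the lowest p in each direction; the families and clusters; the study's list; the groups by cell type; and, beside these, hosts, processing genes (up to 6) and marker lists. The rest of the miR-130 family, other members at an adjusted p under 0.05, those called when an array was left out, Mir125b-1, Mir532, Mir219a-1 and the Mir302b-Mir367 cluster were named after their values were seen. Lists for miR-30, miR-99/125 and miR-181 had medians of 0.14, 0.26 and -0.05 after AOM/DSS, and 5 skeletal muscle markers had 0.19. Alternatives were other scalings, array weights, robust variances, a spread filter (CV under 25%), the replicate block, only the groups compared, and each array left out. Python 3.11.15, pandas 2.3.3, numpy 2.4.6, scipy 1.17.1 and matplotlib 3.10.9 were used.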

Additional observations from a re-analysis of the deposited data

How the results depend on the processing

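The count of microRNA probes called after AOM/DSS (3 as reported) was 0 with only the groups compared, 0 with the 12 arrays quantile normalized again, 1 with array weights and 13 with no fold minimum, and 1 to 6 when each array was left out. It was 2 to 4 in the other settings, robust variances adding Mir465. Over all probes the calls fell from 500 higher and 302 lower to 5 and 1 with only the groups compared, to 82 and 22 without WT AOM/DSS 3 and to 143 and 27 without TSP-1-/- AOM/DSS 3, and were 251 and 130 with array weights. No microRNA probe was called on water or for the difference of differences in any setting run. Over all probes there was at most 1 call on water, without WT water 3, while the difference of differences had 2 calls as reported and 151 higher and 138 lower without WT AOM/DSS 1. The 43 probes on 1 side of the median on all 6 AOM/DSS arrays became 26 with a margin of at least 0.1, 45 with either rescaling, and 47 to 54 when 1 array was left out and 5 remained. Of the alternatives run for 154 probes in AOM/DSS, 3184 results stayed on the same side of the threshold. Where the sign changed among these, the shift was smaller than the SE. Another 12 changed sign with a larger shift, 18 came to pass the threshold and 19 no longer passed it. The cause was not tested.

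Replicate numbers did not pair the AOM/DSS arrays. Same-numbered deviations correlated at -0.04 to 0.03 there, and differently numbered ones at -0.02 to 0.05. On water same-numbered deviations correlated at 0.09 to 0.40, and differently numbered ones at -0.38 to 0.18. The highest of the latter was TSP-1-/- water 1 with WT water 2, above its own number (0.09). Whether the water arrays were paired by number was not tested. With the replicate block 2 microRNA probes were called, Mir130a and Mir16-1, against 3 without it.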
